A study of Mus musculus with 20 samples.

Results

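The 9 genes described here make and break down the polyamines in the mouse brain: Odc1, Azin1, Oaz1, Amd1, Srm, Sms, Sat1, Smox and Paox. They are 9 of the 57180 gene IDs in the count table, and all 9 passed the filter on low counts in both brain regions. The set was chosen by the measured Smox counts, which were higher in the posterior insular cortex (pIC) of diabetic mice; so the difference between diabetic and control mice in pIC is given for all 9 genes as a description, without a test. The 8 other genes were taken for their place in the same pathway.

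Polyamines are small, positively charged molecules that bind RNA, DNA and ion channels. Ornithine decarboxylase (Odc1) makes putrescine, and spermidine synthase (Srm) and spermine synthase (Sms) add aminopropyl groups, supplied by S-adenosylmethionine decarboxylase (Amd1), to make spermidine and spermine. Antizyme (Oaz1) sends ornithine decarboxylase to the proteasome, antizyme inhibitor (Azin1) releases it, spermidine/spermine acetyltransferase (Sat1) and acetylpolyamine oxidase (Paox) return polyamines to their precursors, and spermine oxidase (Smox) turns spermine directly into spermidine with hydrogen peroxide and an aldehyde as by-products.

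The study took poly(A) RNA from tissue punches of the paraventricular thalamic nucleus (PVT) and of pIC in mice, and asked how a painful diabetic neuropathy changes them. Diabetes was induced with 1 intraperitoneal injection of streptozotocin (STZ) at 200 mg/kg, a toxin of the insulin-making beta cells; control mice received vehicle, and tissue was taken at week 7. The groups were PVT control with 4 libraries, PVT STZ with 6, pIC control with 4 and pIC STZ with 6. The sources used here give no strain, sex, age, genotype or blood glucose. The labels number the mice alike in both regions, but do not state that each library comes from its own animal, so p-values measure the spread between these libraries.

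Library totals, in M of 1000000 counts, were 17.9 to 24.5 M in PVT control, 21.7 to 25.3 M in PVT STZ, 21.2 to 23.3 M in pIC control and 19.0 to 25.5 M in pIC STZ. Levels are given as counts per 1000000 counts of the library (CPM), scaled by the trimmed mean of M-values (TMM) over all 20 libraries. Most thalamic markers, but not all, were higher in PVT control than in pIC control. Of 16 markers, 10 passed edgeR's quasi-likelihood test as higher and 2 as lower, at an adjusted p under 0.05. Among those higher, Zic1 had a log2 fold change of 4.32 (SE 0.149). The 2 lower were Cbln4 at -0.63 (SE 0.125) and Necab1 at -0.40 (SE 0.143). The PVT punches varied: their thalamus neuron score, the mean log2 CPM of 16 markers, ran from 4.64 to 5.95 in control and from 4.58 to 7.00 in STZ. PVT control replicate 4 also held the pituitary hormone transcript Gh at 11826 CPM. In bulk tissue, fewer cells of a type and less RNA per cell cannot be told apart.

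The stretches just upstream of Smox, the gene with the clearest difference, and Odc1, which makes the first polyamine, are shown because these genes take opposite ends of the pathway. Each is the 250 bases before the start of the gene, on the plus strand of GRCm38.p6 from RefSeq, at chr2:131491612-131491861 for Smox and chr12:17544623-17544872 for Odc1. Capitals mark a match to TGACNNNGC, the core of the antioxidant response element, the only 1 of 4 motifs searched that is present in either stretch.
Smox: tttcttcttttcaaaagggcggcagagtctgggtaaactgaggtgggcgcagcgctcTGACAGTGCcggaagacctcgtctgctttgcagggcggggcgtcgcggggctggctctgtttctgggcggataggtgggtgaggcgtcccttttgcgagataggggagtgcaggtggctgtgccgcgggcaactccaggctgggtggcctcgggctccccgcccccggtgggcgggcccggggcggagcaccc
Odc1: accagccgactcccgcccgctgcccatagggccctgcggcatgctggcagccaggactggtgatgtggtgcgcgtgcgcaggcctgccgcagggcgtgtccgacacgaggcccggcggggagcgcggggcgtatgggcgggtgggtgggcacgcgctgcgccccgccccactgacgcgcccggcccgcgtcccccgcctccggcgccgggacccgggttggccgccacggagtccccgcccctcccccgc

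The Smox stretch is 68.0% G or C and the Odc1 stretch 80.0%, beside a median of 52.4% over all 32851 windows of this length. The motif in the Smox stretch, TGACAGTGC, begins 193 bases before the start. TGACNNNGC, read on both strands, occurs in 10.2% of all windows and among the genes described here also in that of Oaz1. Windows were found for 7 of the 9 genes, all but Azin1 and Srm, and numbered 9 in all. The E-box CACGTG occurs in 6.02% of all windows and here in that of Sms. The cAMP response element TGACGTCA, in 1.55% of all windows, and the glucocorticoid response element, in 0.00913%, have no match in the 9 windows. These matches describe the letters only.

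Per kilobase of exon, the genes of the pathway covered a wide range in control tissue, with Oaz1 at the top and Paox at the bottom in both regions. In PVT control, Oaz1 averaged 158 ± 10.4 CPM per kb (SD, n = 4), Amd1 58.8 ± 1.86, Odc1 44.7 ± 2.82, Sat1 37.0 ± 3.43, Sms 32.7 ± 1.97, Azin1 32.1 ± 3.97, Srm 28.2 ± 2.55, Smox 14.9 ± 1.47 and Paox 1.61 ± 0.163. From Odc1 down to Srm, the libraries of each gene overlapped with those of its neighbour in this order. Oaz1, Amd1, Smox and Paox each stood clear of their neighbours. In pIC control the same 9 levels were 152 ± 14.9 CPM per kb for Oaz1, 62.6 ± 3.25 for Amd1, 41.4 ± 1.85 for Azin1, 33.9 ± 1.15 for Sms, 32.1 ± 2.92 for Sat1, 32.1 ± 4.30 for Srm, 31.8 ± 1.14 for Odc1, 12.02 ± 0.225 for Smox and 1.57 ± 0.119 for Paox. Odc1 stood below only Oaz1 and Amd1 in PVT and above only Smox and Paox in pIC, although in pIC the libraries of Sms, Sat1, Srm and Odc1 overlapped.

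**Figure D1:**
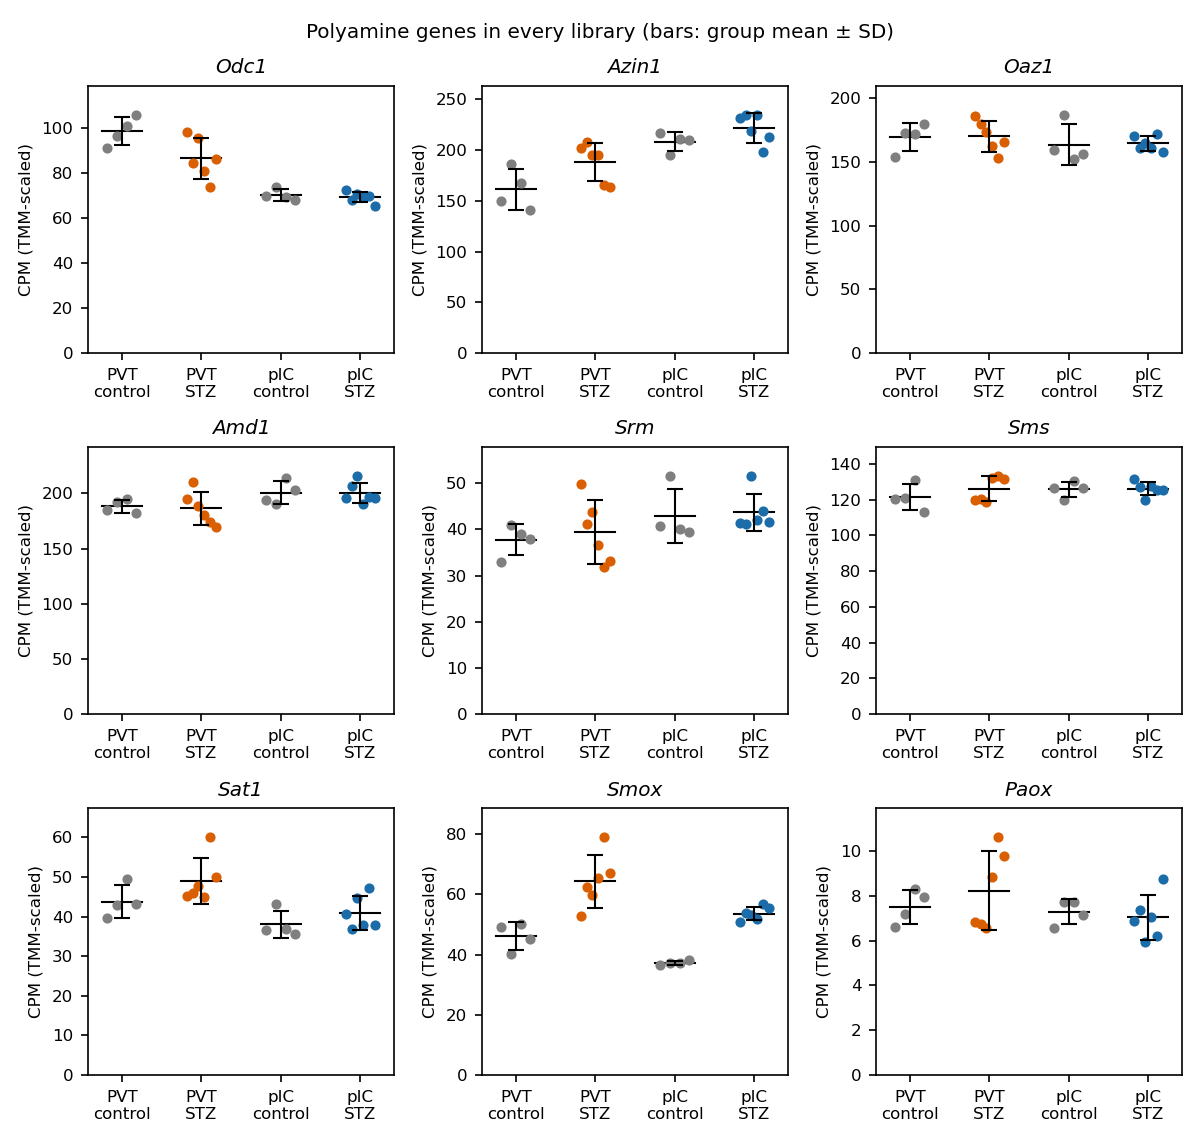
Each point is 1 library and the vertical axis is TMM-scaled CPM from 0; bars are group means ± SD for 4 control and 6 STZ libraries in each region. The Smox points of the STZ libraries lie above all control points in both regions, while the STZ and control points of the other 8 genes overlap.

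Smox was higher in STZ mice in both regions, and it was the only 1 of the 9 genes whose STZ and control libraries did not overlap. In PVT, its control libraries held 49.2, 40.2, 50.2 and 45.3 CPM, and the 6 STZ libraries ran from 52.7 through a median of 63.9 to 79.2 CPM. All 6 STZ libraries therefore lay above all 4 controls. Means were 64.4 ± 8.85 CPM in STZ and 46.2 ± 4.56 in control (SD, n = 6 and 4), a rise of 0.48 on the log2 scale (SE 0.108), or 1.39-fold. This passed edgeR's quasi-likelihood test with a Benjamini-Hochberg adjusted p of 0.0492, close to the threshold of 0.05. An exact two-sided permutation test gave p = 0.00476, the smallest value that its 210 splits allow. That value restates that the groups did not overlap, was not adjusted over genes and adds no support to the call.

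Smox was thus the 1 gene of 9 that was called in PVT, where 2.07% of the 17076 genes tested were called in either direction, 0.474% higher and 1.59% lower. It is the gene that the pIC values had picked, from libraries with the same mouse numbers, and none of the other 8 was called. Nothing is therefore read from the count of 1 in 9. Groups that did not overlap, with STZ above, were found for 2.28% of all genes. The call is near the threshold: it held when STZ replicate 1 was left out (adjusted p = 0.0284 by edgeR's quasi-likelihood test) and was lost when any other single PVT library was left out, with adjusted p from 0.0523 to 0.147, while the rise stayed between 0.41 and 0.53 on the log2 scale.

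In pIC, the Smox difference that selected the set was of similar size and came with less spread. Control libraries held 36.4, 37.3, 37.2 and 38.1 CPM, and STZ libraries ran from 50.8 through a median of 53.5 to 56.8 CPM. The 4 controls thus lay within 2 CPM of one another and 6 of 6 STZ libraries lay above them. Means were 53.7 ± 2.22 CPM in STZ and 37.3 ± 0.698 in control, a difference of 0.53 on the log2 scale (SE 0.0508), or 1.44-fold. The coefficient of variation of Smox over pIC controls was 1.87%, beside a median of 7.40% over the 10909 genes between 5 and 250 CPM. Smox, for which the set was chosen, was the 1 gene of the 9 whose groups did not overlap in pIC. Of all 16189 genes tested there, 1.88% had groups that did not overlap with STZ above, 1.4% were called and 0.432% were called higher. Nothing is read from this count or from the low spread of Smox in pIC, since the same values chose the set.

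The PVT effect on Smox minus the pIC effect was -0.06 on the log2 scale (SE 0.118), given without a test because it contains the pIC difference that chose the set. The labels use the same mouse numbers in both regions, so the libraries may come from the same animals. After removal of the group means, same-numbered PVT and pIC libraries correlated at -0.118 to 0.273 across genes, over 0.1 in 5 of 10 pairs.

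**Figure D2:**
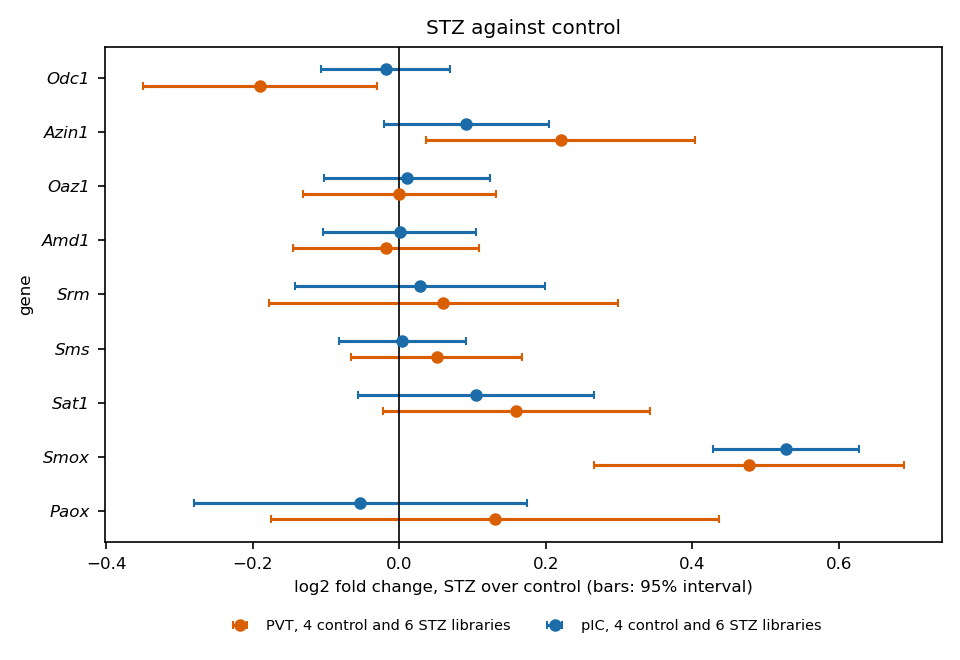
Points are log2 fold changes of STZ over control for the 9 genes in PVT (orange) and pIC (blue), each from 4 control and 6 STZ libraries. Bars are approximate 95% intervals of 1.96 SE. Smox lies at 0.48 in PVT and 0.53 in pIC, and the other 8 genes lie between -0.19 and 0.22.

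Within each PVT group, Smox was highest in libraries with a high thalamus neuron score and lowest in that with the lowest score. In STZ, replicate 1 had a thalamus neuron score of 4.58 and 52.7 CPM of Smox, and replicate 5 a score of 7.00 and 79.2 CPM. In control, replicate 2 had a score of 4.64 and 40.2 CPM, and replicate 3 a score of 5.93 and 50.2 CPM. All 16 thalamus markers were measured and none was at 0 in every library of a group; their summed level was 791 to 1466 CPM in control and 804 to 2811 CPM in STZ, so the groups overlapped. With the score as a covariate, Smox was higher in STZ by 0.44 on the log2 scale (SE 0.0579) with an adjusted p of 0.00159 by edgeR's quasi-likelihood test; over all alternatives with a test the adjusted p ran from 0.00159 to 0.513.

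**Figure D3:**
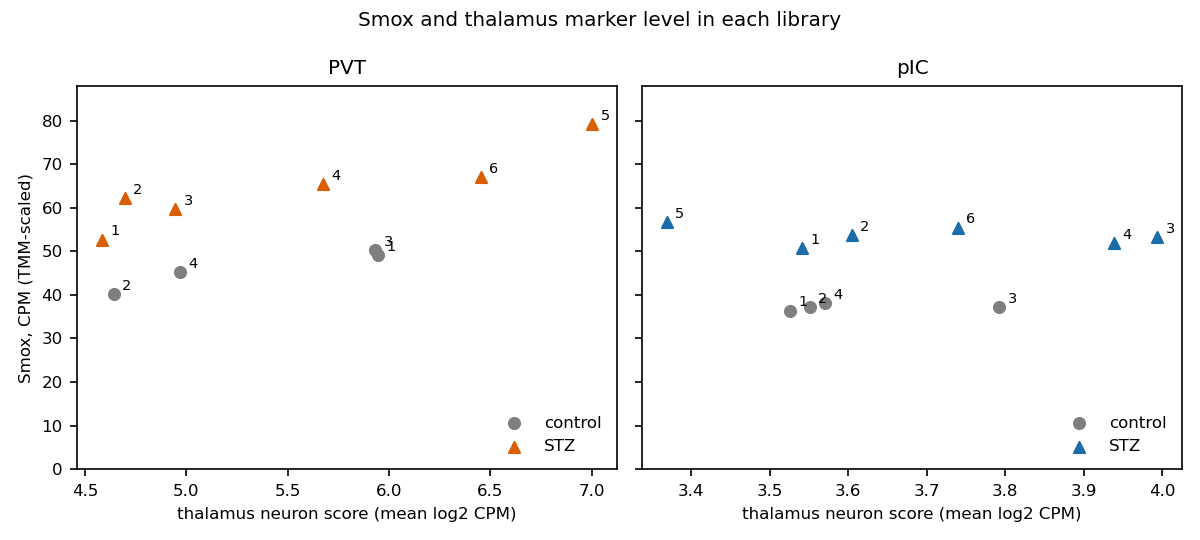
Smox (TMM-scaled CPM, vertical axis from 0) is plotted against the thalamus neuron score (mean log2 CPM of 16 markers) of the same library, with replicate numbers beside the points; circles are control and triangles STZ. In PVT the STZ libraries lie above the controls across the shared range of scores, from 52.7 CPM at 4.58 to 79.2 CPM at 7.00, and in pIC they lie between 50.8 and 56.8 CPM at all scores.

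Other cell type markers moved with STZ in PVT. The oligodendrocyte and myelin score, over 14 of 14 markers with none at 0, was 7.71 to 7.93 in control and 7.21 to 7.62 in STZ, with summed levels of 8701 to 10719 and 7049 to 9789 CPM. The ependyma score, over 12 of 12 markers with none at 0, was 2.95 to 3.36 in control and 2.26 to 2.74 in STZ, with summed levels of 122 to 165 and 75.7 to 105 CPM. These were the only 2 of 16 marker scores whose PVT groups did not overlap, and both were lower in STZ. The choroid plexus score overlapped, at 5.10 to 6.04 in control and 4.02 to 5.18 in STZ, with summed levels of 3035 to 6137 and 1380 to 3420 CPM over 12 of 12 markers. With the choroid plexus score as a covariate the Smox rise was 0.36 (adjusted p = 0.513), and with the oligodendrocyte score it was 0.67 (adjusted p = 0.303), both by edgeR's quasi-likelihood test. The oligodendrocyte score did not overlap between the PVT groups, so the fit with it cannot separate it from STZ. Over all genes 18 were called in that fit, beside 353 without the covariate, and nothing is read from the lost Smox call. The part of these cells in the PVT result was not otherwise tested. In pIC the STZ and control libraries overlapped in all 16 scores. The striatal projection neuron score overlapped in both regions, but its 14 markers varied widely. They summed to 456 to 1558.5 CPM in pIC control and 465 to 4040 in pIC STZ. In PVT they summed to 393 to 1751 CPM in control and 342 to 4120 in STZ, with 4120 in replicate 1. All 14 had a positive log2 fold change with STZ in both regions, and 0 was called. The part of striatal tissue in the PVT result was not tested.

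The enzyme that starts the pathway did not pass the test in PVT. Odc1 control libraries held 91.3, 96.4, 101 and 106 CPM, and STZ libraries ran from 73.9 through a median of 85.4 to 98.2 CPM. In 4 of 6 STZ libraries Odc1 was below all controls, and the other 2 overlapped with them. Means were 86.6 ± 9.09 CPM in STZ and 98.6 ± 6.24 in control, a log2 fold change of -0.19 (SE 0.0815) with an adjusted p of 0.256 by edgeR's quasi-likelihood test. In pIC the Odc1 means were 69.3 ± 2.35 and 70.2 ± 2.52 CPM, a log2 fold change of -0.02 (SE 0.0452).

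The regulators of ornithine decarboxylase did not pass either. Azin1, the antizyme inhibitor, held 150, 186, 168 and 141 CPM in PVT control and ran from 164 through a median of 195 to 208 CPM in PVT STZ. It was above all controls in 4 of 6 STZ libraries and overlapped in the rest. The log2 fold change was 0.22 (SE 0.0937) with an adjusted p of 0.252 by edgeR's quasi-likelihood test; in pIC it was 0.09 (SE 0.0576), with means of 222 ± 14.7 and 208 ± 9.33 CPM. Oaz1, the antizyme, averaged 170 ± 12.1 CPM in PVT STZ and 170 ± 11.1 in control. Its log2 fold change was 0.00 with an approximate 95% interval of -0.13 to 0.13. In pIC its means were 165 ± 5.70 and 163 ± 16.0 CPM. The level of Oaz1 is uncertain, because its near-identical copy Oaz1-ps was listed at 69.5 to 86.8 CPM in PVT and reads may be split between them. The sum of both was 247 ± 17.5 CPM in PVT STZ and 247 ± 16.6 in control.

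The 3 genes that build spermidine and spermine differed by less than their spread. Amd1, which supplies the aminopropyl donor, averaged 186 ± 14.8 CPM in PVT STZ and 189 ± 5.97 in control. Its log2 fold change was -0.02 with an approximate 95% interval of -0.15 to 0.11. Srm, spermidine synthase, averaged 39.5 ± 6.86 and 37.8 ± 3.41 CPM, a log2 fold change of 0.06 with an interval of -0.18 to 0.30. Sms, spermine synthase, averaged 126 ± 6.96 and 122 ± 7.33 CPM, a log2 fold change of 0.05 with an interval of -0.07 to 0.17. Their adjusted p-values by edgeR's quasi-likelihood test were 0.915, 0.839 and 0.705. The intervals leave room for small differences in either direction. In pIC, STZ and control means were 201 ± 9.31 and 201 ± 10.4 CPM for Amd1, 43.7 ± 4.04 and 42.9 ± 5.75 for Srm, and 126 ± 3.73 and 126 ± 4.29 for Sms.

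The other genes of polyamine breakdown did not follow Smox past the test. Sat1, the acetyltransferase, averaged 49.0 ± 5.80 CPM in PVT STZ and 43.8 ± 4.06 in control, and 6 of 6 STZ libraries lay above the control mean but only 2 above all controls. Its log2 fold change was 0.16 (SE 0.0930) with an adjusted p of 0.407 by edgeR's quasi-likelihood test; in pIC it was 0.10 (SE 0.0823), with means of 40.8 ± 4.25 and 38.0 ± 3.46 CPM. Paox, the oxidase of acetylated polyamines and the lowest of the 9 genes, averaged 8.23 ± 1.76 and 7.50 ± 0.759 CPM in PVT, a log2 fold change of 0.13 with an interval of -0.17 to 0.44 and an adjusted p of 0.712. In pIC the Paox means were 7.03 ± 0.997 and 7.29 ± 0.552 CPM. The median log2 fold change over the 9 genes was 0.06 in PVT and 0.01 in pIC, beside 0.00 and -0.00 over all genes tested.

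Among the 9 genes, Smox included, the largest difference between the STZ effects of the regions was that of Odc1. The PVT effect minus the pIC effect was -0.18 (SE 0.0907) for Odc1, 0.17 (SE 0.196) for Paox and 0.11 (SE 0.113) for Azin1 on the log2 scale. For Sat1, Amd1, Srm, Sms and Oaz1 it lay between -0.03 and 0.04. These are estimates given without a test, since they contain the pIC contrast that chose the set.

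Between regions, Odc1 was higher in PVT than in pIC and Azin1 lower, in control mice and in STZ mice. These comparisons use the same libraries as those of STZ with control, and their tests treat same-numbered PVT and pIC libraries as independent. A fit with the mouse number as a block was among the alternatives. Odc1 and Azin1 were each called in 16 of 17 alternatives in control mice and in 20 of 21 in STZ mice. Odc1 averaged 98.6 ± 6.24 CPM in PVT control and 70.2 ± 2.52 in pIC control, where the libraries held 68.1 to 73.9 CPM. The groups did not overlap, as for 23.5% of all genes in this direction, and the difference was 0.50 on the log2 scale (SE 0.0676), or 1.41-fold, with an adjusted p of 1.8e-04 by edgeR's quasi-likelihood test. In STZ mice the groups were again apart, as for 14.9% of all genes, at 73.9 to 98.2 CPM in PVT and 65.5 to 72.4 in pIC, a difference of 0.32 (SE 0.0616) with an adjusted p of 8.1e-04.

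Azin1 was lower in PVT than in pIC in control mice (log2 fold change -0.36, SE 0.0888, adjusted p = 0.00649 by edgeR's quasi-likelihood test). Its 4 PVT control libraries, 141 to 186 CPM, lay below the 4 pIC controls at 195 to 217 CPM, as for 21.9% of all genes. In STZ mice the log2 fold change was -0.24 (SE 0.0663, adjusted p = 0.00881), and the groups overlapped, at 164 to 208 CPM in PVT and 198 to 235 CPM in pIC.

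Sat1 passed the test between regions in STZ mice and missed it in control mice, with estimates close to each other; whether they differ was not tested. It was higher in PVT by 0.26 in STZ mice (SE 0.0857, adjusted p = 0.0217 by edgeR's quasi-likelihood test) and by 0.21 in control mice (SE 0.0885, adjusted p = 0.0673). Without pIC STZ replicate 2 the STZ call was lost (0.23, adjusted p = 0.0528). Without pIC control replicate 2 the control difference was called (0.28, adjusted p = 0.0230). Smox, given without a test, was higher in PVT by 0.32 in control mice (SE 0.0786) and by 0.26 in STZ mice (SE 0.0810).

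The remaining 5 genes were not called between regions. Amd1 differed by -0.08 in control mice and -0.11 in STZ mice on the log2 scale, Srm by -0.17 and -0.15, Sms by -0.04 and -0.00, Oaz1 by 0.06 and 0.04, and Paox by 0.05 and 0.23. Of the 8 genes other than Smox, 2 were called in control mice and 3 in STZ mice. Of all genes tested, 47.8% and 49.1% were called, and with only 8 genes nothing is read from these counts. Neither Odc1 nor Azin1 was called when the test asked for more than a 2-fold difference. PVT and pIC differ in makeup: the oligodendrocyte score was higher in PVT control than in pIC control by 1.20, the ependyma score by 4.37 and the cortical excitatory neuron score lower by 1.61 (difference -1.61). The part of cell makeup in the region differences was not tested.

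**Figure D4:**
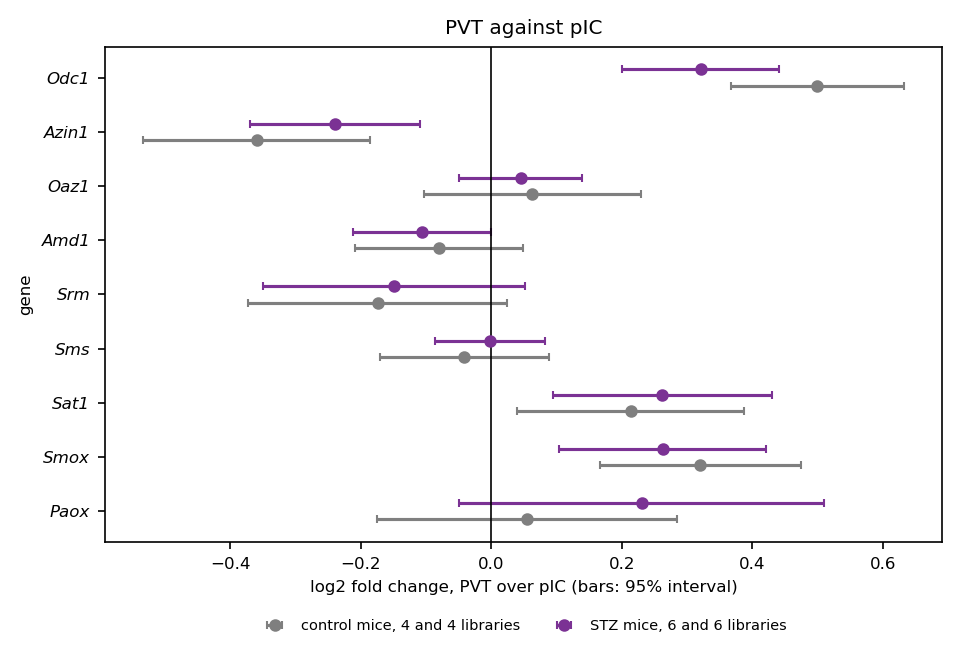
Points are log2 fold changes of PVT over pIC for the 9 genes in control mice and in STZ mice, with bars as 95% intervals. Odc1 lies at 0.50 and 0.32 and Azin1 at -0.36 and -0.24, on opposite sides of 0.

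Around the 9 genes, 56 further genes of the pathway were read in 6 lists, of which 48 could be tested in each region. In PVT, 0 of these 48 rose with STZ and 2 fell, or 4.17%, beside 2.07% of all genes. Both belong to the list of deacetylation, terminal oxidation and aldehyde removal, of which 9 of 10 genes could be tested. Aldh2, a mitochondrial aldehyde dehydrogenase, averaged 99.3 CPM in STZ and 120 in control, a fall with a log2 fold change of -0.27 (SE 0.0478); its adjusted p was 0.0166 by edgeR's quasi-likelihood test. Aldh9a1, which oxidises aminoaldehydes, averaged 39.2 and 48.0 CPM, with a log2 fold change of -0.29 (SE 0.0648) and an adjusted p of 0.0442. In both, all STZ libraries lay below all controls, as in 3.91% of all genes. The Aldh9a1 call was lost in 8 of the 10 fits that left out 1 library, with adjusted p up to 0.147, and the Aldh2 call in that without STZ replicate 4 (adjusted p = 0.0537). Oligodendrocyte and ependyma scores were lower in the same libraries, with the values given above for Smox, and their part in these falls was not tested further than by a covariate. With the oligodendrocyte score as a covariate the log2 fold changes were -0.29 for Aldh2 (SE 0.0849) and -0.24 for Aldh9a1 (SE 0.113). Both SEs were larger than without it, and neither gene passed edgeR's quasi-likelihood test (adjusted p = 0.338 and 0.473). That score did not overlap between STZ and control, so the fit cannot separate it from STZ. Nothing is read from the lost calls. Over all 23 alternatives the log2 fold change ran from -0.33 to -0.24 for Aldh2 and from -0.35 to -0.24 for Aldh9a1.

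The other 5 lists held no call in PVT. The gene nearest to the threshold in the supply of arginine and ornithine was Gatm, which draws arginine into creatine synthesis, at 139 CPM in STZ and 160 in control (adjusted p = 0.219 by edgeR's quasi-likelihood test). Slc3a2, the heavy chain of amino acid transporters, stood at 119 and 109 CPM (adjusted p = 0.267). Got1, the cytosolic aspartate aminotransferase, stood at 365 and 332 CPM (adjusted p = 0.212). Eif5a2, a target of the hypusine modification that uses spermidine, stood at 78.0 and 68.1 CPM (adjusted p = 0.508). Amd2, a copy of Amd1, stood at 1.04 and 1.38 CPM (adjusted p = 0.420), and no library held more than 46 of its counts. In pIC, 0 of the 48 genes was called.

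Between regions the wider pathway differed in many of its genes, as did the transcriptome. In control mice 17 of the 48 genes were higher and 10 lower in PVT, or 56.2% beside 47.8% of all genes. Of all genes 25.5% were higher and 22.4% lower. In STZ mice 17 were higher and 9 lower, or 54.2% beside 49.1% of all genes, of which 26% were higher and 23.1% lower. In the arginine and ornithine list, 6 of 11 tested genes were higher and 2 lower in PVT control. Gatm averaged 160 CPM in PVT control and 78.9 in pIC control, a difference of 1.02 (SE 0.0722, adjusted p = 2.7e-06 by edgeR's quasi-likelihood test), and Ass1, argininosuccinate synthase, 77.4 and 37.5 CPM. In the aldehyde list, 4 of 9 were higher and 0 lower: Aldh9a1 averaged 48.0 and 24.8 CPM, and Maoa, monoamine oxidase A, 40.1 and 29.3 CPM.

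All 3 hypusination genes called were lower in PVT control, of 4 tested. Dohh, the hydroxylase of the last hypusine step, averaged 37.8 CPM in PVT and 48.2 in pIC, and Eif5a, the factor that carries the hypusine, 263 and 310 CPM. Of the transport genes, 3 of 10 were higher and 2 lower. Atp13a4, a P5B-type ATPase, averaged 12.7 and 5.98 CPM, and Slc12a8 2.35 and 0.716 CPM. Of the methylthioadenosine and S-adenosylmethionine genes, 3 of 9 were higher and 2 lower: Adi1, of the methionine salvage route, averaged 44.1 and 29.5 CPM and Mat2b, the regulatory subunit of methionine adenosyltransferase, 88.2 and 148 CPM. Among the antizyme relatives, Azin2, a second antizyme inhibitor, was lower in PVT at 23.0 and 31.9 CPM and Sat2 higher at 5.44 and 3.85 CPM. The adjusted p of Eif5a was 0.0369 by edgeR's quasi-likelihood test, and its call was lost in 7 of its 17 alternatives. None of the pathway genes named for the regions passed a test for more than a 2-fold difference between the regions.

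**Figure D5:**
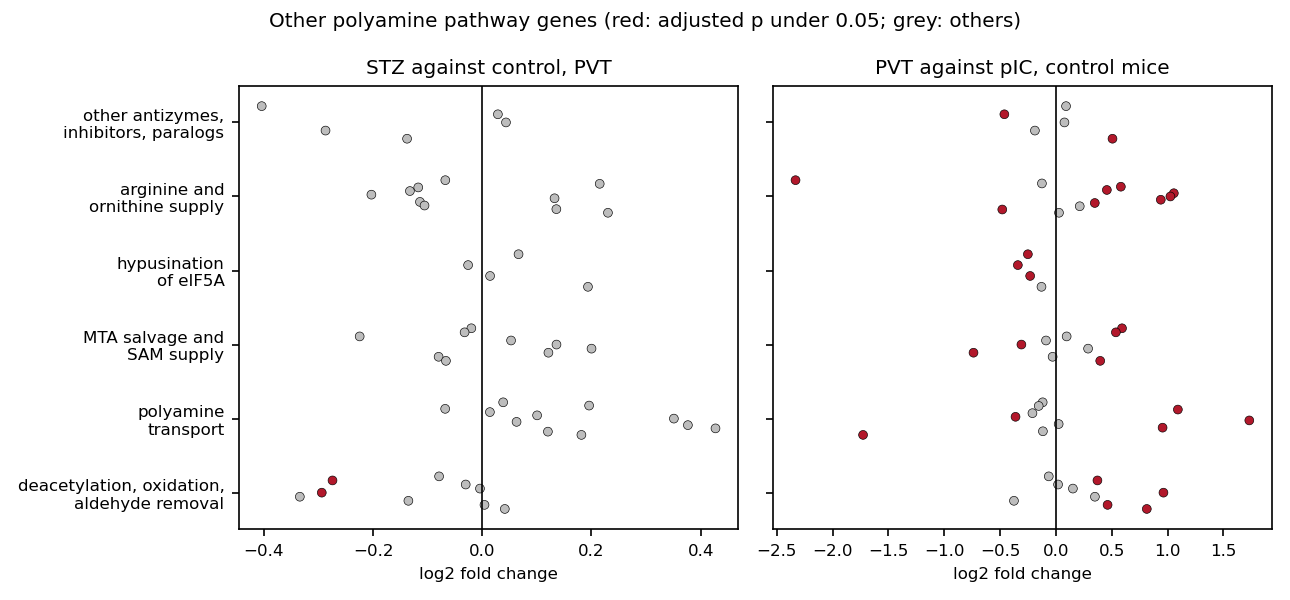
Each point is 1 tested gene of the 6 other pathway lists, placed by its log2 fold change for STZ over control in PVT (left) and for PVT over pIC in control mice (right); red points passed an adjusted p of 0.05. The left panel holds 2 red points, both in the aldehyde list, and the right panel 27 red points.

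Genes whose level was most like that of Smox were found by Pearson's r of log2 CPM over all 20 libraries among 13289 genes, as a description. They were Cbs (r = 0.91), Cdh19 (r = 0.91), Gjb6 (r = 0.89), Plin4 (r = 0.88) and Ddit4 (r = 0.88). Like Smox, each was highest on average in PVT STZ and lowest in pIC control, an order largely set by choosing them for a high r. Cbs, cystathionine beta-synthase, averaged 35.4 ± 2.59 CPM in PVT STZ, 27.6 ± 1.67 in PVT control, 27.8 ± 1.80 in pIC STZ and 20.3 ± 1.55 in pIC control. Ddit4 averaged 76.0 ± 4.62, 52.2 ± 4.15, 56.8 ± 6.27 and 38.0 ± 3.01 CPM in the same order. Plin4, a lipid droplet protein, averaged 60.4 ± 7.88, 14.5 ± 5.30, 29.6 ± 10.5 and 6.63 ± 3.20 CPM. Among the polyamine genes Sat1 came nearest, with r = 0.69 at rank 152 of 13289.

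Within groups the likeness was to other genes. Once the 4 group means were removed, the genes most like Smox were Mreg (r = 0.94), Arhgap22 (r = 0.92), Chrnb2 (r = 0.92), Slc7a3 (r = 0.92) and Tmem132c (r = 0.91). None of these separated STZ from control in PVT: Chrnb2, a nicotinic receptor subunit, ran from 67.5 to 91.0 CPM in control and from 70.5 to 112 in STZ. The genes share their libraries and so the makeup of each punch, and the SD of Smox was larger in PVT (4.56 CPM in control and 8.85 in STZ) than in pIC (0.698 and 2.22 CPM). These r values pool both regions and so rest mostly on PVT, and they were not computed for each region.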

How the data were processed

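Gene counts as deposited by the authors, whole numbers per Ensembl gene in 20 libraries, were the only measurement used; the submitters' processing notes name the build GRCm39 (mm39), and the aligner, counter, strand setting and annotation version were not given in the sources used here. Of 57180 IDs, 51884 were matched to symbols. In each comparison genes were filtered with edgeR's filterByExpr (minimum count 10, total 15), scaled by TMM and tested with edgeR's quasi-likelihood test (edgeR 4.0.16, limma 3.58.1, R 4.3.3), with Benjamini-Hochberg adjustment over all genes tested and a threshold of 0.05; intervals are 1.96 SE. The 1.96 SE of the intervals is a normal approximation, narrower than the quasi-likelihood test of the same fit would give. The tests were checked on simulated counts. Exon lengths come from GENCODE's basic annotation of GRCm38. The genes and lists were chosen with earlier results of these data known; the medial habenula markers were added after the data were seen. Of the other pathway lists, the text names genes called in PVT (else the 1 of smallest p) and, between regions in control mice, the 2 of smallest p per list; genes like Smox are the 5 of highest r. Smox-like genes needed a mean of 1 CPM. Alternatives were other scalings, filters, DESeq2 1.42.0, limma-voom, covariates, a replicate block and leaving out each library. Libraries within groups differed by more than sampling noise.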

Additional observations from a re-analysis of the deposited data

Results flagged for a closer look

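Of 36 groups of 1 gene in 1 condition, 3 held a library far from the others, and chance alone flags about 1 in 20 groups. Sat1 in PVT STZ replicate 5 was 60.2 CPM, and the next library of the group held 49.9 CPM. Srm in pIC control replicate 2 was 51.5 CPM, with the next at 40.7 CPM. Srm in pIC STZ replicate 3 was 51.7 CPM, with the next at 44.0 CPM.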

How the results depend on the processing

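In PVT the count of polyamine genes called was 1, and it was 0 with upper quartile scaling, with the choroid plexus or the oligodendrocyte score as a covariate and, chosen after seeing the data, without the 4 libraries lowest in thalamus score; it ran from 0 to 1 when single libraries were left out. Smox was higher in STZ in all 24 alternatives (0.36 to 0.67), called in 9 of the 23 with an adjusted p. It was 0.42 with upper quartile scaling (adjusted p = 0.0691) and 0.55 without the 4 libraries (adjusted p = 0.0726); DESeq2 gave 0.00285. With a replicate block the count was also 0 (Smox 0.37, adjusted p = 0.152); same-numbered control and STZ libraries correlated at -0.300 to 0.536 in PVT, over 0.1 in 1 of 4 pairs, so the numbers are not taken to pair them, and the cause was not tested. With a minimum fold of 2, the counts between regions were 0 in control mice (2 without it) and 0 in STZ mice (3 without it), as that test asks for more. The Smox difference between regions' effects stayed between -0.13 and -0.00. No called value changed sign. Over all genes, calls ran from 18 (oligodendrocyte covariate) to 1075 (thalamus covariate) around 353 in PVT, from 75 to 468 around 226 in pIC, and down to 873 from 7948 and to 594 from 8089 between regions with the minimum fold. With 4 controls, the printed intervals leave room for small changes, and no detection limit was computed.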

Other observations

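Sms-ps, a copy of Sms, was listed at 0 in 11 of the 20 libraries and at 13 to 56 counts in the other 9, with no value between 0 and 13. Of the deacetylation, oxidation and aldehyde list, 9 of 9 tested genes had a negative log2 fold change in pIC, with a median of -0.10, and 0 of them was called. The median over all genes was -0.00. The other lists held both signs in pIC, and in PVT this list had 7 negative and 2 positive. Its genes share the same libraries, so their signs are not independent, and nothing is read from them.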
